A study of Mus musculus with 10 samples.

Results

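The genes of cholesterol synthesis, uptake and transport were followed in mouse granulosa cells, the somatic cells that line the ovarian follicle and make progesterone after the ovulatory stimulus. They are 29 genes listed by symbol for their function, of which 27 were read by a probe set carrying 1 gene symbol (16 synthesis enzymes, 5 genes of sterol sensing and 6 of transport), out of 19938 genes tested in all. Acat2 and Soat1 were not analysed here. Where a gene had several such probe sets (Idi1 and Fdft1), the brightest on average was used.

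The groups were PRKO mice, homozygous for a lacZ insertion in the progesterone receptor gene Pgr that disrupts transcription of both receptor isoforms, and PR+/- mice, which carry the same insertion on 1 copy and served as the controls. All mice were 21 to 23 days old and received 5 IU of equine chorionic gonadotropin, then 5 IU of human chorionic gonadotropin (hCG) 44 to 47 h later, and follicles were punctured 8 h after hCG. Each of the 10 whole-transcript arrays read a pool of cells from 3 animals, giving 5 pools per genotype from 15 animals each, so differences between single animals are averaged within a pool. Wild-type and untreated mice were not part of the comparison, and the insertion is present in every cell of the animal. Values are log2 expression as deposited, with array medians over genes between 6.74 and 6.83, and 1 unit is a doubling of signal. Differences are PRKO minus PR+/- with limma's standard error (SE). A gene said to stand at a value has that log2 difference, one said to run from one value to another has those log2 levels, and the test is passed where the p-value, adjusted by Benjamini and Hochberg's method across the 19938 genes, is below 0.05. Pgr itself did not differ past the threshold (log2 difference -0.46, limma adjusted p = 0.527), and where its probes lie with respect to lacZ is not known here, so this checks nothing about the genotypes. In bulk samples, fewer cells of a type and less RNA per cell cannot be told apart.

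Cholesterol is the precursor of progesterone. Cells make it from acetyl-CoA through mevalonate, farnesyl diphosphate, squalene and lanosterol, or take it up from lipoproteins and release it in the lysosome. When sterols in the endoplasmic reticulum are low, the escort protein SCAP carries the transcription factors SREBP-1 and SREBP-2 to the Golgi, where they are cut and set free to switch on the synthesis genes. When sterols are high, INSIG proteins hold SCAP back, and oxysterols switch on the efflux pumps ABCA1 and ABCG1 through the LXR receptors. In granulosa cells these routes supply the side chain cleavage step of steroid synthesis.

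The promoters of 3 genes are shown because results below turn on them. Hmgcs1 and Lss were the pair of synthesis genes that varied most alike between pools, and Scap was the gene of the group that differed between genotypes. Each run spans 250 bases before to 50 bases after the transcription start on the gene's own strand (RefSeq, GRCm38.p6), at chr13:119690101-119690400 on the plus strand for Hmgcs1, chr10:76531355-76531654 on the plus strand for Lss and chr9:110333038-110333337 on the plus strand for the first of the 2 starts listed for Scap. Capitals mark the sterol regulatory element TCACCCCAC, the CCAAT box (read as ATTGG on the other strand) and the E-box CACGTG.
Hmgcs1: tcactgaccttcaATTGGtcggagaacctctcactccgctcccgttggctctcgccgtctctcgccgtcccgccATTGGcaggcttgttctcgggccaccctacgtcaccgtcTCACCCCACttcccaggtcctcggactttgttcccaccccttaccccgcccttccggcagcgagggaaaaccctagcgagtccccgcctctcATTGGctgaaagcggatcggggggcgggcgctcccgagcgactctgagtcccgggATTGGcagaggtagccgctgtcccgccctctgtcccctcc
Lss: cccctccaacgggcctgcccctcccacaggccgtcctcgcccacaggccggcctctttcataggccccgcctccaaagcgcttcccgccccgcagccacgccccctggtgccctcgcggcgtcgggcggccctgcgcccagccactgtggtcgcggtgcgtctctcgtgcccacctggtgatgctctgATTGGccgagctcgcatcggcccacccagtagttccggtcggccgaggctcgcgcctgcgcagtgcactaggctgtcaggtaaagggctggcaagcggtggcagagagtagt
Scap: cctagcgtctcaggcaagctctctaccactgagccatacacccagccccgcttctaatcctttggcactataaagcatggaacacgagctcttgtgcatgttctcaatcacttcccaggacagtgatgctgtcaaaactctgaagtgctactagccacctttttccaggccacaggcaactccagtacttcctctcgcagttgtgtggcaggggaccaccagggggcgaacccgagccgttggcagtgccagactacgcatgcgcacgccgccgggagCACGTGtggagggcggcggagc

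In these windows the Hmgcs1 promoter held 1 sterol regulatory element, with its first base at position -137 from the start, and 4 CCAAT boxes, the site of the factor NF-Y that works with SREBP. The Lss promoter held 1 CCAAT box and the Scap promoter 1 E-box. Promoter windows were found for 23 of the 29 genes, 31 windows in all. The 9 letters of the sterol regulatory element, searched on both strands, were in 1 of 31 windows (3.23%) against 0.551% of all 32851 windows in the table, and allowing any base in the middle (TCACNCCAC) it was the same 1 of 31 against 1.24%. CCAAT was in 13 of the 17 windows of synthesis genes (76.5%) against 37.4% of all windows. The GC box GGGCGG was in 14 of these 17 (82.4%) against 35.7%, and CACGTG in 2 of 17 (11.8%) against 7.15%. The shares were not particular to the synthesis genes. Of 10 windows of sterol-sensing genes, 5 held CCAAT, 8 the GC box and 3 CACGTG. Of 4 windows of transport genes, 3 held CCAAT, 4 the GC box and 1 CACGTG. Pmvk and Dhcr7 have several windows each among the 17, so windows are not independent. These matches are a description of letters and were not tied to binding.

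Among the cholesterol genes, Scap was the 1 gene that passed the test between PRKO and PR+/- granulosa cells. Of the 27 genes, 1 was higher in PRKO and 0 were lower, against 0.752% higher, 1.71% lower and 2.46% called in either direction among all genes in limma. At an unadjusted p under 0.05 there were 4 (Scap, Dhcr7, Sc5d and Npc2), against 13.0% of all genes. The median log2 difference of the 27 genes was 0.05, beside -0.02 over all genes, and 18 stood above 0 and 9 below. Among all genes 8938 stood above 0 and 11000 below. The 95% intervals of 23 genes included 0. Among the 26 genes that were not called, the intervals reached at most a 1.54-fold change, for Dhcr7, and at most 1.35-fold for the other 25. A share of 1 in 27 is near the background.

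**Figure D1:**
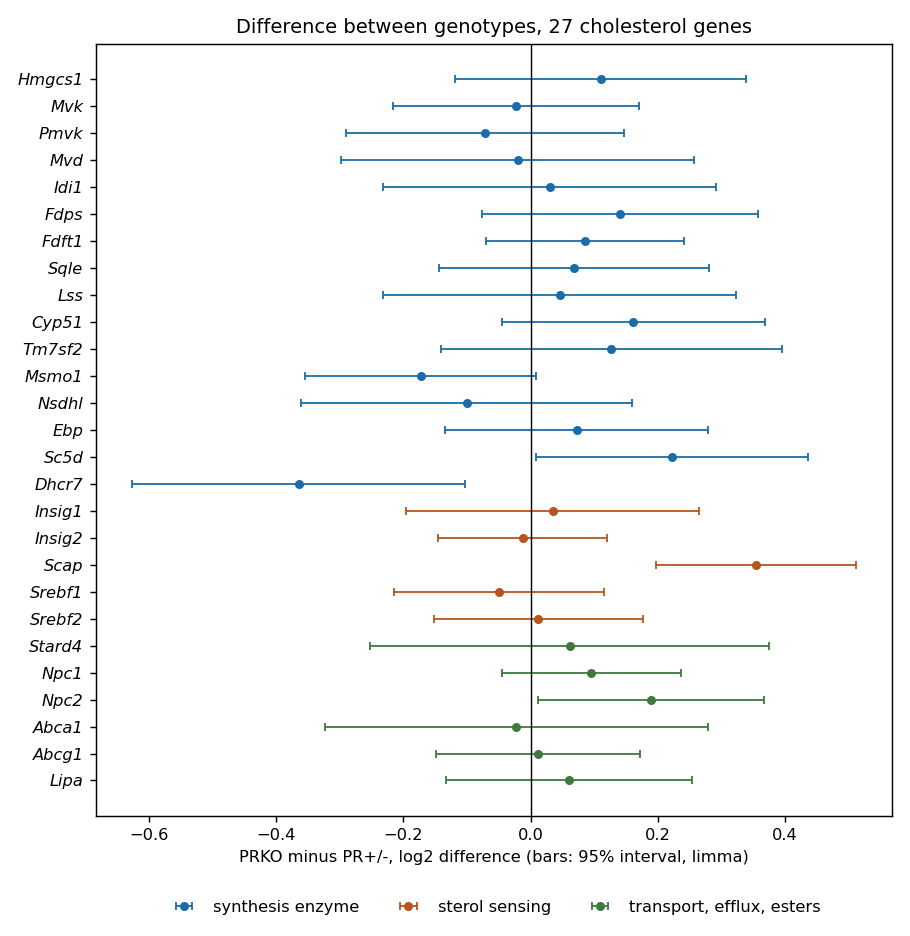
Log2 difference PRKO minus PR+/- for the 27 cholesterol genes, as points with 95% intervals from limma, 5 pools per genotype, coloured by role. Scap stands at 0.35 with an interval from 0.20 to 0.51, Dhcr7 at -0.36, and the intervals of 23 genes include 0.

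The early enzymes, which build the isoprenoid units, showed no call. Hmgcs1, the cytosolic HMG-CoA synthase that opens the mevalonate pathway, read 12.14, 11.71, 11.84, 12.08 and 12.08 in PR+/- pools 1 to 5 and 12.13, 11.88, 11.87, 12.22 and 12.28 in PRKO pools 1 to 5. The ranges overlapped, and the log2 difference was 0.11 (SE 0.11, limma adjusted p = 0.727). Mevalonate kinase (Mvk) ran from 8.52 to 8.88 in PR+/- and from 8.51 to 8.88 in PRKO, nearly the same span, with a log2 difference of -0.02. Phosphomevalonate kinase (Pmvk), the next step, ran from 7.86 to 8.49 in PR+/- and from 7.94 to 8.16 in PRKO, a narrower span inside that of the controls (log2 difference -0.07). The decarboxylase Mvd, which makes isopentenyl diphosphate, ran from 9.05 to 9.93 in PR+/- and from 9.33 to 9.65 in PRKO, again narrower (log2 difference -0.02). The isomerase Idi1, which makes dimethylallyl diphosphate from it, stood at 0.03 and ran from 10.45 to 10.997 in PR+/- and from 10.56 to 11.01 in PRKO. Fdps, which makes farnesyl diphosphate, stood at 0.14 and ran from 10.10 to 10.61 in PR+/- and from 10.39 to 10.72 in PRKO, with PR+/- pool 2 below all other pools. Second probe sets of Idi1 and Fdft1 gave differences of 0.04 and 0.07.

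The squalene and lanosterol steps showed no call either. Squalene synthase (Fdft1) had a log2 difference of 0.09 with an SD between pools of 0.10, the smallest of the synthesis genes, and ran from 10.55 to 10.77 in PR+/- and from 10.65 to 10.87 in PRKO. Squalene epoxidase (Sqle), an oxygen-dependent and rate-controlling enzyme, stood at 0.07 (SE 0.10) and ran from 10.46 to 10.90 in PR+/- and from 10.54 to 11.001 in PRKO. Lanosterol synthase (Lss), which closes the sterol rings, read 10.30, 9.72, 10.08, 10.26 and 10.17 in PR+/- pools 1 to 5 and 10.22, 10.01, 9.79, 10.30 and 10.43 in PRKO pools 1 to 5. Its lowest values were PR+/- pool 2 and PRKO pool 3, the genotypes overlapped, and the log2 difference was 0.05 (SE 0.13, limma adjusted p = 0.926). Cyp51, the lanosterol demethylase, stood at 0.16 and ran from 10.19 to 10.53 in PR+/- and from 10.29 to 10.71 in PRKO. The sterol reductase Tm7sf2 stood at 0.13 and ran from 7.79 to 8.55 in PR+/- and from 8.19 to 8.60 in PRKO, and its controls spread more widely than its PRKO pools.

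The last enzymes, which trim lanosterol to cholesterol, held the widest spread of differences. Msmo1, a methyl sterol oxidase, stood at -0.17 (95% interval -0.35 to 0.01) and ran from 12.72 to 12.96 in PR+/- and from 12.41 to 12.80 in PRKO. Nsdhl, a sterol dehydrogenase, stood at -0.10 and ran from 9.80 to 10.29 in PR+/- and from 9.62 to 10.26 in PRKO. The isomerase Ebp stood at 0.07 and ran from 8.36 to 8.74 in PR+/- and from 8.42 to 8.84 in PRKO. The genotypes overlapped in all 3. Dhcr7, the reductase that turns 7-dehydrocholesterol into cholesterol, read 10.90, 10.43, 10.93, 10.75 and 10.87 in PR+/- pools 1 to 5 and 10.64, 10.16, 10.23, 10.70 and 10.33 in PRKO pools 1 to 5. PR+/- pool 2 lay among the PRKO pools, and the log2 difference of -0.36 (SE 0.12) did not pass (limma adjusted p = 0.183). Sc5d, the desaturase one step before Dhcr7, read 11.13, 10.88, 10.92, 10.97 and 11.10 in PR+/- pools 1 to 5 and 11.30, 11.07, 10.94, 11.34 and 11.46 in PRKO pools 1 to 5. Its ranges overlapped, with 3 PRKO pools above every control, and the log2 difference was 0.22 (SE 0.10, limma adjusted p = 0.360). With the mean of granulosa cell markers in each array as a covariate, Sc5d passed (log2 difference 0.35, limma adjusted p = 0.0435).

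In the sterol-sensing machinery, Scap was higher in PRKO and the other 4 genes were not called. Scap, the sterol-sensing escort of the SREBP proteins, read 10.32, 10.35, 10.30, 10.37 and 10.25 in PR+/- pools 1 to 5 and 10.73, 10.81, 10.63, 10.47 and 10.72 in PRKO pools 1 to 5. All 5 PRKO pools lay above all 5 controls, and Scap was the 1 gene of the 27 whose pools did not overlap, against 4.42% of all genes. Scap was 1.28-fold higher in PRKO, from 10.32 ± 0.04 to 10.67 ± 0.13 (SD, n = 5 pools each, log2 difference 0.35, SE 0.07, limma adjusted p = 0.0173). Leaving out PR+/- pool 5 or PRKO pool 1 ended the call (limma adjusted p = 0.0530 and 0.0549) as did the granulosa marker covariate (log2 difference 0.31, limma adjusted p = 0.0604).

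None of the partners of Scap passed the test. Insig1, an SREBP target whose protein retains SCAP, read 11.85, 11.65, 11.82, 11.88 and 11.92 in PR+/- pools 1 to 5 and 11.68, 11.91, 11.63, 11.82 and 12.25 in PRKO pools 1 to 5. Its PRKO pools spread over a wider range, with pool 5 highest, around nearly the same mean (log2 difference 0.03, SE 0.11). Insig2, its paralog, varied least of the 27 genes between pools (SD 0.05) and stood at -0.01, with a 95% interval from -0.15 to 0.12. Srebf2, which encodes SREBP-2, the main activator of the synthesis genes, stood at 0.01 (95% interval -0.15 to 0.18), and Srebf1, which encodes SREBP-1, at -0.05 (95% interval -0.22 to 0.12). A further probe set naming Srebf2 together with 3 other genes was not used for it.

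Genes of cholesterol release, transport and efflux showed no call. Stard4, a soluble sterol carrier and SREBP target, read 9.56, 9.20, 9.53, 9.77 and 9.84 in PR+/- pools 1 to 5 and 9.72, 9.25, 9.40, 9.91 and 9.93 in PRKO pools 1 to 5. It had the largest SD between pools of the 27 genes, 0.28, and a log2 difference of 0.06 (SE 0.15). Npc1 and Npc2, which hand cholesterol out of the lysosome, stood at 0.10 and 0.19. Npc1 ran from 9.34 to 9.50 in PR+/- and from 9.44 to 9.61 in PRKO. Npc2 read 9.70, 9.42, 9.72, 9.60 and 9.77 in PR+/- pools 1 to 5 and 9.89, 9.73, 9.75, 9.9985 and 9.80 in PRKO pools 1 to 5, so that 3 of the PRKO pools lay above every control and the ranges overlapped (SE 0.08, limma adjusted p = 0.346). The lysosomal acid lipase Lipa, which frees cholesterol from lipoprotein esters, stood at 0.06 (SE 0.09) and ran from 8.06 to 8.44 in PR+/- and from 8.19 to 8.51 in PRKO. The efflux pump Abca1 read 10.63, 10.60, 10.64, 10.42 and 10.67 in PR+/- pools 1 to 5 and 10.57, 10.61, 10.32, 11.14 and 10.20 in PRKO pools 1 to 5. Both the highest and the lowest value of Abca1 were PRKO pools, 4 and 5, and its mean differed by -0.02 (SE 0.14). The pump Abcg1 stood at 0.01 (SE 0.07) and ran from 7.06 to 7.12 in PR+/- and from 6.94 to 7.25 in PRKO. The SD between pools was larger in PRKO than in PR+/- for both pumps, 0.36 against 0.10 for Abca1 and 0.14 against 0.03 for Abcg1, a difference in spread that was not tested.

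Among 52 other genes of sterol and lipid supply that were measured, 3 were lower in PRKO and 0 higher. Among all genes 1.71% were lower and 0.752% higher. These lists were chosen with earlier results of these data known, so the counts describe the lists and test nothing. Only 4 of the 52 are cholesterol synthesis enzymes, and the 3 called genes are not among them. Of 7 lipoprotein receptors and uptake genes, 2 were lower, while 4 of the 7 stood above 0 (median log2 difference 0.11). Lrp8, the apolipoprotein E receptor 2, read 10.998, 10.69, 10.94, 11.17 and 11.10 in PR+/- pools 1 to 5 and 9.87, 10.17, 9.63, 9.74 and 10.12 in PRKO pools 1 to 5. The genotypes did not overlap, and Lrp8 was 2.10-fold lower in PRKO (log2 difference -1.07, SE 0.12, limma adjusted p = 7.71e-05). Vldlr, the very low density lipoprotein receptor, read 10.15, 9.90, 9.91, 10.15 and 10.22 in PR+/- pools 1 to 5 and 9.56, 9.49, 9.25, 9.31 and 9.43 in PRKO pools 1 to 5. It did not overlap either and was 1.58-fold lower (log2 difference -0.66, SE 0.09, limma adjusted p = 0.000516).

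Of 16 other sterol carriers, droplet and ester enzymes, 1 was lower. Stard5, a sterol and bile acid binding START protein of the family of Stard4, read 9.37, 8.85, 9.19, 8.90 and 9.05 in PR+/- pools 1 to 5 and 7.86, 7.91, 7.96, 8.15 and 7.82 in PRKO pools 1 to 5. Every PRKO pool lay below every control, and Stard5 was 2.19-fold lower (log2 difference -1.13, SE 0.10, limma adjusted p = 1.29e-05). The oxysterol binding family member Osbpl6 stood at -0.32 and did not pass. The calls of Lrp8, Vldlr and Stard5 held without any 1 pool, with limma adjusted p at most 0.00255 over 21 alternative settings. Exact permutation, which calls no gene here, was counted apart.

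The other lists held no call in limma, and their counts at an unadjusted p under 0.05 stand beside 13.0% of all genes. Of 4 further synthesis enzymes (0 at an unadjusted p under 0.05), the lamin B receptor Lbr, which is also a sterol reductase, stood at -0.13 and the geranylgeranyl diphosphate synthase Ggps1 at -0.03. Of 6 further regulators of SREBP processing and HMG-CoA reductase turnover (3 at an unadjusted p under 0.05), the ubiquitin ligase Rnf145 stood at 0.32 and Tmem97 at 0.22. Of 13 SREBP-1 targets of fatty acid synthesis (2 at an unadjusted p under 0.05), the elongase Elovl6 stood at 0.17 and the phosphatidate phosphatase Lpin1 at -0.23. Of 7 LXR genes, 1 was at an unadjusted p under 0.05. Mylip, a ubiquitin ligase for lipoprotein receptors, stood at 0.19 and did not pass (limma adjusted p = 0.245). Its pools did not overlap, as was so for 4.42% of all genes. Smpdl3a stood at 0.18.

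**Figure D2:**
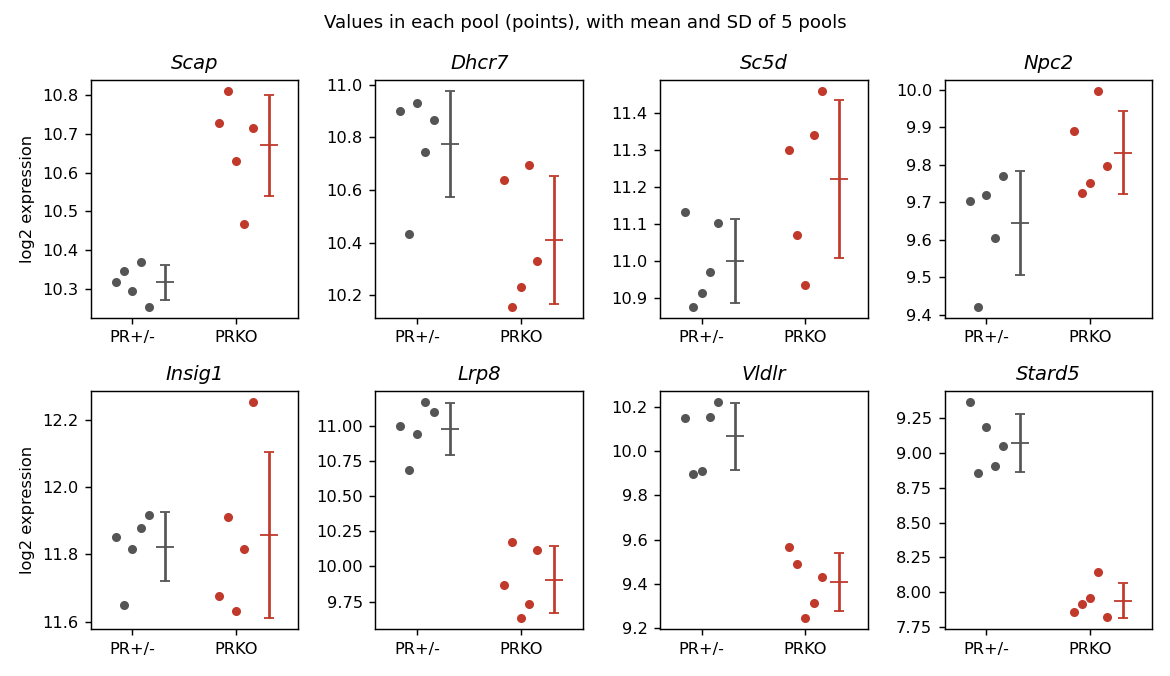
Log2 expression in each pool for 5 cholesterol genes (Scap, Dhcr7, Sc5d, Npc2 and Insig1) and for the lipoprotein receptors Lrp8 and Vldlr and the sterol carrier Stard5, with the mean and SD of 5 pools beside the points. Each panel has its own log2 axis, which does not start at 0. The genotypes are apart in Scap, Lrp8, Vldlr and Stard5 and overlap in the other 4 genes.

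With the genotype means removed, the 16 measured synthesis enzymes of the group varied together over the 10 pools. No correlation was taken in either genotype alone. Each pool's deviation from its genotype mean was taken for 16 measured enzymes, and deviations were compared between genes over the 10 pools. All 120 pairs of enzymes correlated above 0, with a median Pearson r of 0.73 and a range from 0.39 to 0.95. Over all pairs of the 19938 genes the median r was 0.03 and 52.1% of pairs were above 0. Of the enzyme pairs, 95.8% had r above 0.5, against 13.3% of all pairs. The sets compared are unlike in brightness, with a median level of 10.49 for the enzymes and 6.78 for all genes. Of all genes, 6736 had means under the background signal described below with the markers, and 0 of the 16 enzymes did. The correlations are descriptions over 10 pools with no test, and every pair shares the same arrays and their scaling. The most alike pairs were Hmgcs1 with Lss (0.95), Fdps with Tm7sf2 (0.92) and Sqle with Lss (0.92). The least alike were Mvd with Msmo1 (0.39) and Mvd with Cyp51 (0.40).

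PR+/- pool 2 and PRKO pool 3 stood apart as the low pools of the synthesis enzymes. In PR+/- pool 2 all 16 enzymes lay below their genotype mean, by 0.26 on average (1.20-fold), and 14 of the 16 had their lowest control value there. In PRKO pool 3 all 16 lay below as well, by 0.23 on average (1.17-fold), and 13 had their lowest PRKO value there. The number of enzymes above their genotype mean was 15, 0, 5, 10 and 15 in PR+/- pools 1 to 5 and 15, 3, 0, 15 and 14 in PRKO pools 1 to 5. The mean level of the 16 enzymes ran from 9.93 to 10.35 over the PR+/- pools and from 9.99 to 10.32 over the PRKO pools, with genotype means of 10.19 ± 0.17 and 10.21 ± 0.15 (SD, n = 5 pools each). Without both low pools, the median r was 0.51 and 113 of 120 pairs were above 0, with single pairs down to -0.51. Between pools the enzymes had a median SD of 0.18, against 0.14 over all genes, and 14 of 16 lay above that median. All genes here include the dim ones counted above.

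**Figure D3:**
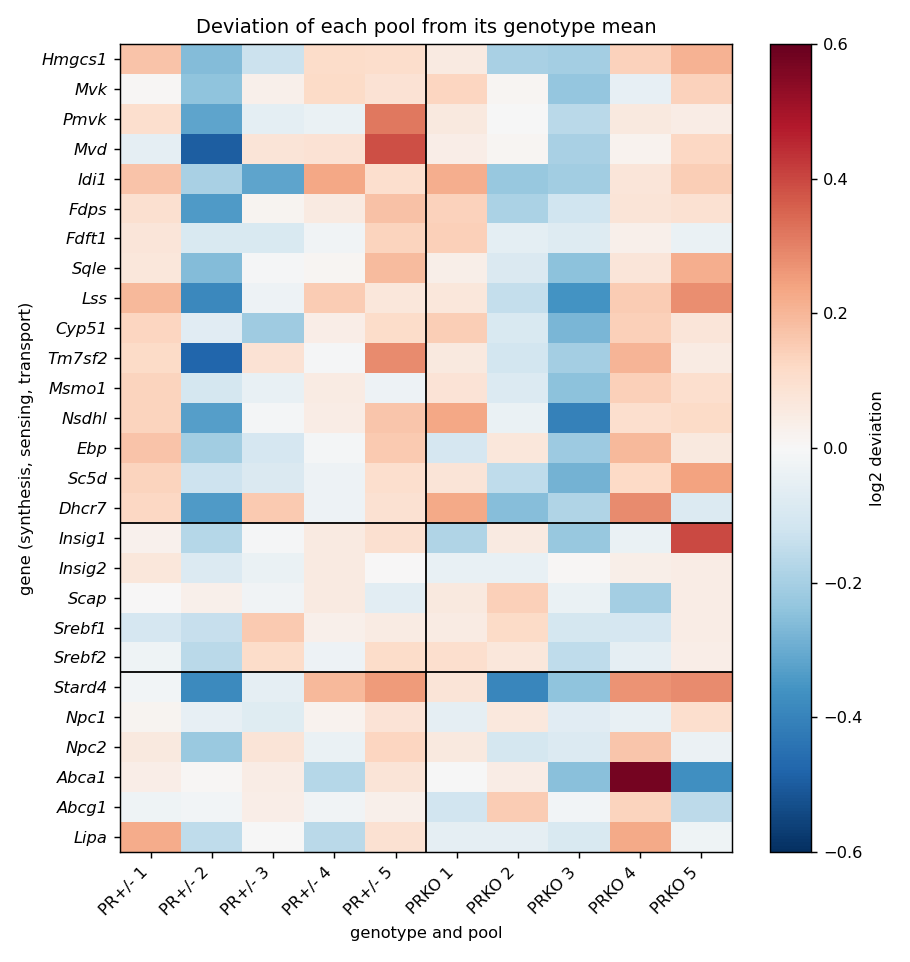
Log2 deviation of each pool from the mean of its own genotype for the 27 cholesterol genes (rows, in the order synthesis, sensing, transport) in 10 pools (columns), with red above and blue below the mean. All 16 synthesis enzymes are below the mean in PR+/- pool 2 and in PRKO pool 3.

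The genes outside the synthesis route joined this pattern to different degrees. Stard4 followed the mean of the enzymes most closely (r = 0.87), then Npc2 (0.80), Srebf2 (0.63), Insig2 (0.60), Lipa (0.60), Insig1 (0.55) and Npc1 (0.47). Srebf1 (0.28) and Abca1 (0.23) followed it weakly, and Abcg1 (-0.16) and Scap (-0.24) had values below 0. Abca1 and Abcg1, both LXR targets, had an r of 0.70 with each other. Srebf1 and Srebf2 had an r of 0.87, and Insig1 and Npc1 an r of 0.84. For each of the 16 enzymes, r with the mean of the other 15 lay between 0.73 (Dhcr7) and 0.94 (Nsdhl). The 4 further enzymes of cholesterol synthesis did not vary together, with a median pairwise r of -0.24 and 3 of 6 pairs above 0. Among the other lists, the SREBP-1 targets of fatty acid synthesis had a median pairwise r of 0.41 over 13 genes. The lipoprotein receptors and uptake genes had one of -0.25 over 7 genes.

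**Figure D4:**
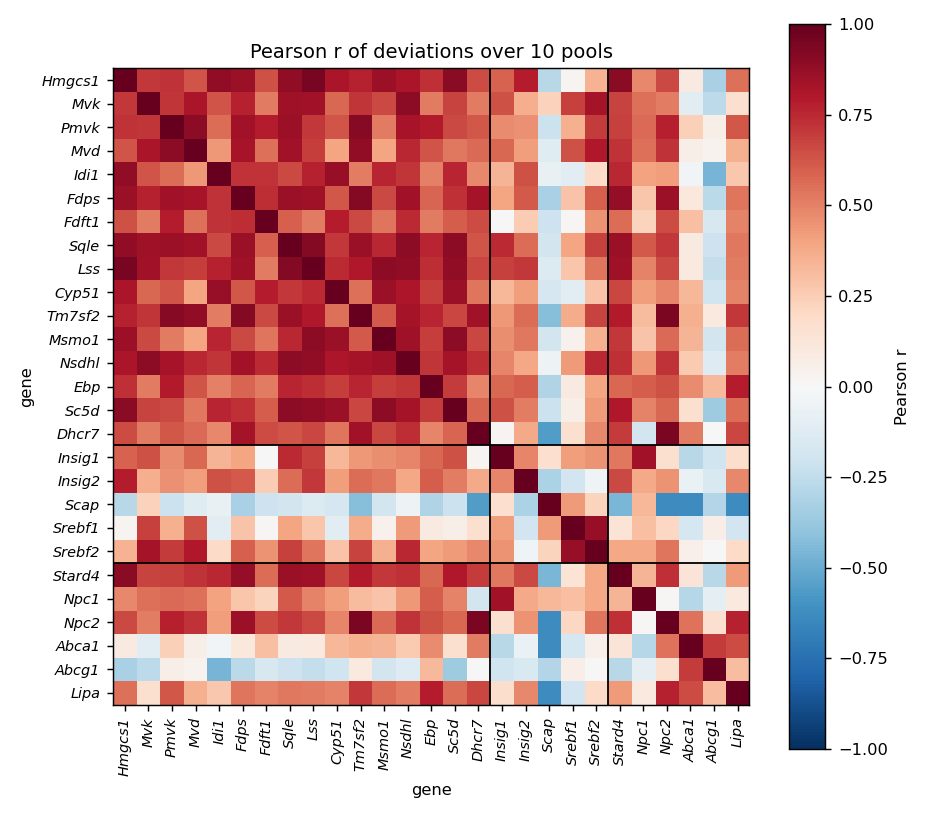
Pearson r between the deviations of each pair of the 27 cholesterol genes over 10 pools, with lines between the synthesis, sensing and transport genes. The block of 16 synthesis enzymes is red throughout (0.39 to 0.95), Stard4 and Npc2 continue it, and Scap and Abcg1 stand out of it.

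Of 19814 genes outside all lists, the 3 whose deviations were most like the mean of the enzymes over the 10 pools were Prkca (r = 0.95), which encodes protein kinase C alpha, Sbsn (0.95) and Kctd20 (0.95). They are the top of a very long ranking and are given as a description. Prkca was higher in PRKO (log2 difference 0.45, SE 0.09, limma adjusted p = 0.0168) and Kctd20 lower (log2 difference -0.37, SE 0.06, limma adjusted p = 0.00318), while Sbsn stood at 0.16 and did not pass. The call of Prkca was lost without PRKO pool 1 and with the mean of olfactory receptor genes as a covariate (limma adjusted p = 0.0552 and 0.0502).

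The cell type markers moved with the pool pattern in part. All 8 measured granulosa markers had means above 5.87, the level that 95% of the olfactory receptor genes stay under, taken here as background signal. None of the 8 passed between genotypes in limma, but 7 of the 8 had differences above 0, with a median of 0.27 and a range from -0.49 to 0.60 on the log2 scale. At an unadjusted p under 0.05 there were 6 of the 8, against 13.0% of all genes. With the mean of these markers as a covariate, the log2 difference of Scap was 0.31 (limma adjusted p = 0.0604). Without the covariate it was 0.35 (limma adjusted p = 0.0173). Whether the markers bear on Scap was not tested. The mean level of the 8 granulosa markers was 9.93, 10.42, 10.05, 10.17 and 10.01 in PR+/- pools 1 to 5. In PRKO pools 1 to 5 it was 10.28, 10.57, 10.64, 9.94 and 10.19. The 2 pools lowest in synthesis enzymes were thus the highest of their genotype in the granulosa marker mean. Inhba, Hsd17b1 and Fshr were each highest in both of these pools, and the other markers were not. Whether this mean follows the share of granulosa cells or their state was not tested. With that mean as a covariate, the median r of the enzymes was 0.45 and 105 of 120 pairs were above 0. The oocyte markers, all 7 above background, had a mean of 9.10 in PR+/- pool 2, the highest control, and 8.44 in PRKO pool 3, within the PRKO range of 8.31 to 9.22. With the oocyte mean as a covariate the median r was 0.66. Of 37 markers of 5 other cell types, 0 differed in limma (2 at an unadjusted p under 0.05). Log2 differences were below 0 for 7 of 7 oocyte, 10 of 12 leukocyte and 7 of 8 endothelial markers. They were below 0 for 2 of 7 theca and interstitial and 1 of 3 red blood cell markers. Among all 19938 genes they were below 0 for 11000 and above 0 for 8938. Leukocyte markers had pool means from 6.01 to 6.20 in PR+/- and from 5.82 to 6.19 in PRKO, with 4 of 12 under background. Theca and interstitial markers ran from 8.27 to 8.79 and from 8.20 to 9.00, and endothelial markers from 6.51 to 6.87 and from 6.50 to 7.03. The lowest endothelial mean of each genotype was in the pool lowest in synthesis enzymes, PR+/- pool 2 and PRKO pool 3. The margins were small, with 6.52 in both PR+/- pool 4 and PRKO pool 5. The highest means of the endothelial and leukocyte lists in PRKO were in pool 4, the pool highest in Abca1 and Lipa. The leukocyte mean was 6.19 there and 6.17 in pool 2. Ptprc, Mrc1, C1qa, Csf1r and Tyrobp were highest in PRKO pool 4. Adgre1, C1qb, C1qc, Cd68 and Lyz2 were highest in pool 2, Cd14 in pool 3 and Fcgr1 in pool 1. Abcg1 was highest in pool 2 too, at 7.25 against 7.23 in pool 4. The part of these markers in the results was not tested.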

How the data were processed

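Expression was measured on whole-transcript arrays in 5 PR+/- and 5 PRKO pools of granulosa cells. The deposited values are log2 expression per probe set, made by the authors. Partek is the software named, per the submitters' processing notes. How background was corrected and arrays were normalized and summarized is not stated in the sources used here. Values ran from 1.45 to 14.4. Of 35557 probe sets, 21789 carried 1 symbol, 1621 several and 12147 none, by the platform annotation. Symbols were checked by Entrez ID against RefSeq (GRCm38.p6, 21698 matched, 0 updated). The probe set with the highest mean was kept per gene. There were 0 unused sample columns.

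PRKO and PR+/- were compared with limma 3.58.1 in R 4.3.3 over 19938 genes, with equal weights and no block. All members and Pgr are named, from each other list at most 2 genes with the smallest p, and the 3 genes most like the enzymes. The members and lists were chosen with earlier results of these data known. The fit was tested on simulated data. Each genotype had 5 pools, and what limits the precision of the arrays was not tested. Alternatives were quantile normalization, median centring, array weights, the replicate block, dim genes removed, a robust prior, a trend of variance with intensity, the mean of probe sets, all probe sets, 2 array covariates, other thresholds, exact permutation and leaving out each pool. Leaving out PR+/- pool 2 with PRKO pool 3, and an oocyte covariate, were chosen after seeing the data. Python 3.11.15, pandas 2.3.3 and matplotlib 3.10.9 made tables and figures.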

Additional observations from a re-analysis of the deposited data

Results flagged for a closer look

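With 5 pools in a group, a pool was marked when its gap to the nearest other pool was over 0.71 of the group's range (Dixon's 95% value), a limit that chance passes in about 1 of 20 groups. Of 86 groups tested, 4 were marked, 3 of them among the 54 groups of the cholesterol genes. Pmvk read 7.94 in PRKO pool 3, below the other PRKO pools by 0.16, and the other 15 enzymes were below their genotype mean in that pool too. Abca1 read 10.42 in PR+/- pool 4, below the other controls by 0.18. Lipa read 8.51 in PRKO pool 4, above the other PRKO pools by 0.25. Prkca read 9.05 in PR+/- pool 2, below the other controls by 0.27.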

How the results depend on the processing

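Of the 27 genes, 1 was called in limma, and over the fits that left out 1 pool this count was 0 to 1, with 0 without PR+/- pool 5 and 0 without PRKO pool 1, while 360 to 488 of all genes were called beside 491. With the granulosa marker covariate the 1 call was Sc5d in place of Scap. The limma adjusted p of Scap ran from 0.00583 to 0.0604. Exact two-sided permutation of the pools called 0 genes and 0 of the 27, with 2540 genes at an unadjusted exact p under 0.05, since 5 against 5 pools give no p below 0.00794. An adjusted p under 0.01 left 258 genes and 0 of the 27, an added fold of at least 1.5 left 220 and 0, and an unadjusted p under 0.05 gave 2591 and 4. The median difference of the 27 genes ran from -0.01 to 0.13 over 21 settings, and 12 of the 27 changed sign in at least 1. Of 946 pairs of a gene and a setting, 934 kept their side of the threshold, 11 lost and 1 gained a call, and 0 called genes reversed. Most of these genes were not called in limma, so the 934 say little about the called ones. Scap lost its call in 4 settings and Prkca in 3. Lrp8, Vldlr, Stard5 and Kctd20 lost theirs in 1 each, the exact permutation. The median r of the synthesis enzymes was 0.45 with the granulosa covariate, where 105 of 120 pairs were above 0 and single pairs fell to -0.49. With the replicate block it was 0.49, with 96 of 120 pairs above 0 and single pairs down to -0.88. It was 0.51 without PR+/- pool 2 and PRKO pool 3, and 0.67 to 0.79 when 1 pool was left out. Causes were not tested beyond the fewer pools or stricter threshold of a setting. Same-numbered pools correlated at -0.10 to 0.32, with 3 of 5 pairs over 0.1. The numbers were not taken to pair the pools, since that asked for every pair over 0.1, although 5 of the 10 pools correlated best with their own number, a hint from the data and not the design. The replicate block called 529 genes and 1 of the 27, Scap. Arrays with 5 pools per genotype limit what can be seen, and the intervals of the genes not called bound it.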
